A study of Mus musculus with 34 samples.

Results

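Spic encodes Spi-C, an ETS-family transcription factor closely related to PU.1. In the mouse it is known for the macrophages that take up old red cells, recycle their heme and export the iron: those of the splenic red pulp depend on it, and Kupffer cells, the resident macrophages of the liver sinusoids, express it. Heme relieves repression of the gene by BACH1. The chromatin of the Spic locus is described here with 22 features. They are the 9 H3K27ac regions whose nearest gene is Spic within 100 kb of its start, 5 of 84647 regions in a table of liver macrophages and monocytes and 4 of 95038 in a table of cultured macrophages, and the 13 of 496538 called peaks of LXR, SMAD4 or RBPJ that overlap them. Members were taken by position and gene name, but with earlier results of these data known. A region is also in a table only if the authors listed it as acetylated in some group, so membership is not free of level.

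The series is a mouse ChIP-seq study of how liver signals change the enhancers of monocytes that enter an emptied Kupffer cell niche. H3K27ac, acetylation of histone H3 at lysine 27, marks active promoters and enhancers. It was measured in Kupffer cells (KC, untreated), in repopulating liver macrophages (RLM) of Clec4f-cre/Rosa26iDTR mice 24 h after diphtheria toxin, in untreated blood Ly6C-high monocytes of C57BL/6J mice, and in C57BL/6J bone marrow-derived macrophages (BMDM) of 4 days in culture with the Notch ligand DLL4 for 24 h or without it. LXR binding was measured in KC of Clec4f-cre mice and in C57BL/6J BMDM of 7 days in culture with the LXR agonist GW3965 for 18 h. SMAD4 and RBPJ binding was measured in KC nuclei of Clec4f-cre mice and in untreated C57BL/6J BMDM of 4 days in culture. Each group holds 2 libraries. Clec4f drives Cre in KC, so the toxin receptor marks the cells that the toxin removes, and RLM are the cells found in the liver afterwards. The labels give the H3K27ac KC libraries the strain C57BL/6J, while the design text gives them the toxin receptor strain of the RLM. Cell source, toxin and strain therefore differ together between RLM and monocytes. Between KC and RLM, cell source, toxin and perhaps strain differ together, and between KC and monocytes cell source and perhaps strain. Within each comparison these cannot be told apart. No label says that the libraries within a group are from different mice or cultures. P-values therefore set a difference between groups against a spread between libraries, estimated over all libraries of a fit, that may be technical.

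The H3K27ac libraries held 8.22 and 19.5 M tags in regions for KC, 7.37 and 9.47 M for RLM, 11.6 and 12.3 M for monocytes, and 20.2 to 27.2 M for the BMDM. The 50 regions with the most tags took 10.1% and 10.2% of RLM tags, against 5.66% and 4.90% of monocyte tags. The summed level of 5 Kupffer cell marker genes (Clec4f, Timd4, Vsig4, Cd5l, Marco) was 1136 to 1244 CPM (tags per 1 M tags, TMM-scaled) in KC, 126 to 136 in RLM and 53.4 to 65.4 in monocytes, and all 5 had regions. That of 5 Ly6C-high monocyte genes was 223 to 237 in KC, 443 to 459 in RLM and 386 to 417 in monocytes. Of the hepatocyte and endothelial lists, 3 of 5 and 5 of 5 genes had regions, with 48.1 to 50.7 and 184 to 193 CPM in KC, 19.1 to 20.3 and 99.6 to 106 in RLM, and 15.8 to 17.1 and 76.1 to 85.1 in monocytes. The members of these lists differed in direction. In KC against RLM, Ttr (2.48) was called higher while Alb (-0.08) and Apoa1 (-0.17) were not called, and Stab2 (2.47) was called higher while Pecam1 (0.65) and Clec4g (-0.79) were not called and Kdr (-1.18) and Ptprb (-1.73) were called lower. The summed level of 3 of 5 erythroid genes was 28 to 34.2 in KC, 20.9 to 26.0 in RLM and 13.3 to 15.0 in monocytes. Fewer cells of a type and less signal per cell cannot be told apart in such samples, and the part of other cells in the Spic values was not tested.

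The gene lies on the minus strand of chromosome 10 (mm10 88675269 to 88683023), and its start is the higher coordinate. The first region, chr10:88682135-88684135, covers the promoter and is centred 112 bp upstream of the start. A second promoter region, chr10:88682668-88684668, is centred 645 bp upstream and overlaps the first. Another, chr10:88680155-88682155, lies in intron 1 of transcript NM_011461 and the next, chr10:88675409-88677409, in intron 5, the last intron. The fifth, chr10:88668924-88670924, is intergenic, 13.1 kb downstream of the start and beyond the 3′ end of the gene. The BMDM table holds all of these but the second promoter region, at nearly the same coordinates, with the promoter region at chr10:88682127-88684127 and intron 1 at chr10:88680139-88682139. None of the regions of the first table was listed by the authors in monocytes. The first promoter region and intron 1 were listed in KC and RLM, the second promoter region and intron 5 in KC alone. In the BMDM table intron 1 and intron 5 were listed with DLL4 alone. Membership thus favours KC and RLM over monocytes, and DLL4 in these introns.

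The promoter is shown because 3 of the factors had called peaks in it. Below, it is given 5′ to 3′ from RefSeq (GRCm38.p6, minus strand, chr10:88682974-88683273), from 250 bases before the start, and the 127 bases that lie in the LXR peaks of both KC libraries (chr10:88683071-88683197) are in capitals.

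Spic promoter: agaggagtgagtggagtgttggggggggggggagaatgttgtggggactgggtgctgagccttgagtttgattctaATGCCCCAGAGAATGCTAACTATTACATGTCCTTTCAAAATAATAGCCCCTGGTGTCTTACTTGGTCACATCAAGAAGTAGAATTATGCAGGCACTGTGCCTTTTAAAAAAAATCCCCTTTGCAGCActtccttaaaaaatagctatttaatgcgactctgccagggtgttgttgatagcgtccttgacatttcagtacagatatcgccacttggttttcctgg

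The window has 45.0% G and C, against a median of 52.7% over 32851 RefSeq promoters of the same length, and 22% of those have less. It holds 3 CG dinucleotides, against a median of 7. Exact letters of 9 motifs were searched on both strands. They were TGGGAA (RBPJ), CAGAC (SMAD), GAGGAAGT (ETS factors such as PU.1), AGGTCA (the core of nuclear receptor elements), the same core repeated directly after 4 bases (DR4, the element of LXR with RXR), TGAGTCA (AP-1), GCTGAGTCA (the MARE core read by BACH1 and NRF2 with small MAF proteins), TTGCNNAA (C/EBP) and CACGTG (E-box). That core is part of DR4 and the AP-1 letters are part of the MARE core. None was in this window. Of all promoters, 25.6% hold the RBPJ letters, 49.6% the SMAD letters, 16.3% the receptor core, 10.8% the C/EBP letters and 7.15% the E-box. The AP-1 letters are in 5.20%, the ETS letters in 3.20%, the MARE core in 0.454% and DR4 in 0.0152%.

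The promoter and intron 1 of Spic carried most H3K27ac in KC, less in RLM and almost none in monocytes. Intron 5 and the region downstream of the gene were low in all 3 groups. The first question of the design is what differs at 24 h between RLM and the blood monocytes. At the promoter region the RLM libraries held 220 and 260 tags and the monocyte libraries 20 and 7, which is 27.7 ± 1.76 CPM in RLM and 1.12 ± 0.760 CPM in monocytes (mean ± SD, n = 2 each). Every RLM library lay far above both monocyte libraries. The log2 difference was 4.62 (SE 0.32, adjusted p = 1.11e-19, edgeR quasi-likelihood test with Benjamini-Hochberg adjustment over 80982 regions).

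Intron 1 held 145 and 191 tags in RLM, against 5 and 5 in monocytes, or 19.2 ± 0.249 and 0.413 ± 0.000319 CPM. The groups did not overlap, and the log2 difference of 5.50 (SE 0.38, adjusted p = 4.08e-20, edgeR) was the largest of the locus in this comparison. The second promoter region, which shares tags with the first, held 142 and 173 tags in RLM and 17 and 4 in monocytes. It differed by 4.37 (SE 0.36, adjusted p = 2.50e-16, edgeR). Calls needed a fold of 2 or more at an adjusted p below 0.05. By this rule 3 of the 4 tested Spic regions were called higher in RLM, against 8.57% of all regions tested. None of these regions was listed by the authors in monocytes, and such membership favours calls in this direction.

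Intron 5 behaved otherwise. It held 24 and 13 tags in RLM, against 9 and 15 in monocytes (2.24 ± 1.3 and 0.991 ± 0.350 CPM). The groups did overlap in tags, though not in CPM, and the difference of 1.14 (SE 0.57, adjusted p = 0.145, edgeR) was not called. Without the second RLM library it was called, at 1.65 with adjusted p = 0.045. Compared directly with the other regions of the gene in the same fit (diffSpliceDGE of edgeR), intron 5 departed from them by -2.20 on the log2 scale in RLM against monocytes, with adjusted p = 8.80e-04. Of all regions so tested, 9.84% departed from the others of their gene in this comparison. Without the second monocyte library the departure was -1.59 with adjusted p = 0.102. The intergenic region was listed by the authors in RLM only. It held 2 and 24 tags in RLM and 7 and 9 in monocytes, so its level rested on 1 RLM library, and it did not pass the filter on low counts.

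**Figure D1:**
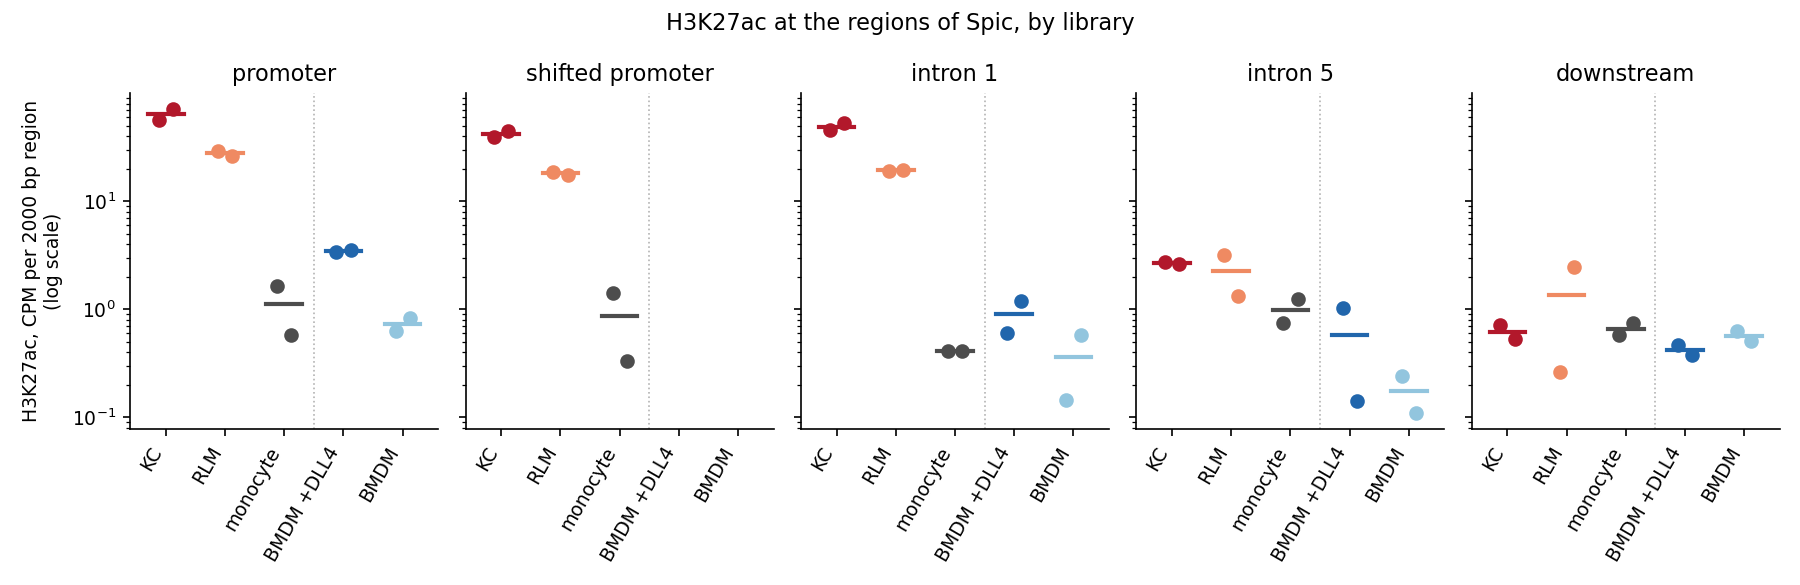
H3K27ac level (CPM per 2000 bp region, log scale) of each library (points) and the mean of each group (bars) at the 5 regions of Spic, in KC, RLM and monocytes (left of the dotted line) and in BMDM with and without DLL4 (right, a separate table with its own scaling). At the promoter and intron 1, KC lie above RLM and RLM far above monocytes, while intron 5 and the downstream region reach at most 3.15 CPM in any library.

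KC were then set against RLM. The promoter region held 477 and 1221 tags in KC and 220 and 260 in RLM, that is 64.2 ± 10.4 CPM in KC and 27.7 ± 1.76 CPM in RLM. The deeper KC library gave 71.6 CPM and the other 56.9, both well above the RLM libraries at 28.9 and 26.4. The log2 difference was 1.22 (SE 0.23, adjusted p = 8.58e-06, edgeR). Intron 1 held 378 and 901 tags in KC, against 145 and 191 in RLM (49.0 ± 5.50 and 19.2 ± 0.249 CPM), a log2 difference of 1.35 (SE 0.24, adjusted p = 1.90e-06, edgeR). The second promoter region held 331 and 760 tags in KC and 142 and 173 in RLM and differed by 1.22 (SE 0.25, adjusted p = 5.11e-05, edgeR).

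At these 3 regions no KC library overlapped an RLM library. The share of all regions so separated was not counted, and 2 against 2 libraries give no exact permutation p under 0.333. All 3 were called higher in KC, as were 22.3% of all regions tested, and the promoter regions among them share tags. The other tested region, intron 5, held 23 and 45 tags in KC, against 24 and 13 in RLM (2.69 ± 0.0725 and 2.24 ± 1.3 CPM). Its RLM libraries lay on both sides of the KC libraries in CPM. The difference of 0.29 (SE 0.52, adjusted p = 0.663, edgeR) was not called, nor was its departure from the other regions (-0.65, adjusted p = 0.277), where 19.5% of all regions departed. The intergenic region held 6 and 9 tags in KC, against 2 and 24 in RLM, and was not tested.

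Over the whole distance from monocytes, KC had a log2 difference of 5.84 (SE 0.32, adjusted p = 3.90e-26, edgeR) at the promoter, 5.58 (SE 0.35) at the second promoter region and 6.85 (SE 0.36, adjusted p = 8.07e-27) in intron 1. This comparison shares its libraries with the other 2 and is no independent support for them. Intron 5, with 23 and 45 tags in KC and 9 and 15 in monocytes, was called as well, at 1.43 (SE 0.54, adjusted p = 0.0225, edgeR). So 4 of 4 tested regions were called higher, where 24.9% of all regions were. All 4 were listed by the authors in KC and none in monocytes, which favours calls in this direction. The call in intron 5 rests on few tags. Its adjusted p was 0.154 without the first monocyte library, 0.0884 without the first KC library, 0.110 without the second and 0.0789 with DESeq2. Intron 5 departed from the other regions of the gene by -2.85 (adjusted p = 6.64e-06), and 28% of all regions departed. Intron 1 stood above the others by 0.91 (adjusted p = 0.0418). That departure was not called without the first monocyte library (adjusted p = 0.181), the second RLM library (0.0635), the first KC library (0.0541) or the second (0.0645).

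**Figure D2:**
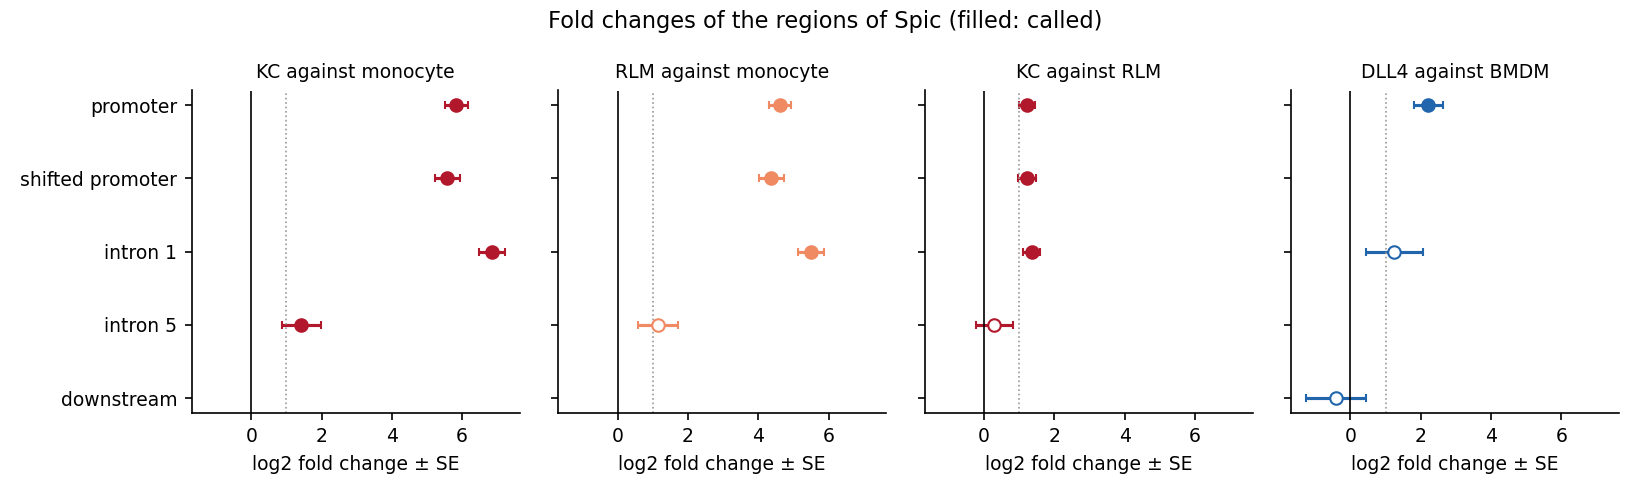
Log2 fold change of H3K27ac with its standard error at the regions of Spic in 4 comparisons, from edgeR. Filled points were called (adjusted p under 0.05 and fold at least 2), the solid line marks no difference and the dotted line the smallest fold that could be called. Regions without a point did not pass the filter on low counts or are not in that table.

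The make-up of the signal also differed. Of the tags in the downstream region, intron 5, intron 1 and the first promoter region together, intron 1 held 42.8% and 41.4% in the KC libraries, 37.1% and 39.1% in the RLM libraries, and 12.2% and 13.9% in the monocyte libraries. Intron 5 held 2.60% and 2.07% in KC, 6.14% and 2.66% in RLM, and 22% and 41.7% in monocytes, where the 4 regions together had 41 and 36 tags. The promoter share was 54.0% and 56.1% in KC, 56.3% and 53.3% in RLM, and 48.8% and 19.4% in monocytes. The monocyte shares thus rest on few tags.

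All regions have the same length, so levels can be ranked within a library. The promoter region of Spic lay above 94.3% and 94.5% of 15258 promoter regions in the KC libraries, 68.8% and 66.5% in the RLM libraries, and 11.7% and 3.51% in the monocyte libraries. Intron 1 lay above 94.8% and 94.0% of all regions in KC, 84.3% and 84.7% in RLM, and 1.93% and 5.03% in monocytes. Intron 5 lay above 43.7% and 44.7% of all regions in KC, 53.1% and 19.8% in RLM, and 8.07% and 29.7% in monocytes.

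DLL4, a Notch ligand of the liver sinusoidal endothelium, was given to BMDM to ask what Notch signalling changes outside the liver. At the promoter region of Spic the BMDM with DLL4 held 73 and 74 tags, and the BMDM without it 13 and 23. That is 3.46 ± 0.0886 CPM with DLL4 and 0.732 ± 0.142 CPM without. The treated libraries agreed closely and lay above both untreated libraries. The log2 difference was 2.22 (SE 0.42, adjusted p = 1.10e-04, edgeR over 82089 regions). It was the sole call among the 3 Spic regions tested, and 4.89% of all regions were called higher.

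Intron 1 held 13 and 25 tags with DLL4 and 3 and 16 without, which overlap in tags though not in CPM (0.604 and 1.19 with DLL4, 0.146 and 0.579 without). Its difference of 1.25 (SE 0.81, adjusted p = 0.311, edgeR) was not called. Intron 5 held 22 and 3 tags with DLL4 and 5 and 3 without, so the higher mean rested on 1 library, and it did not pass the filter. The downstream region held 10 and 8 tags with DLL4 and 13 and 14 without (-0.42, SE 0.85, adjusted p = 0.805). None of the 3 tested regions departed from the others, where 7.02% of all regions did. With DLL4 the promoter lay above 19.2% and 19.7% of 15169 promoter regions of its table, and without DLL4 above 6.54% and 8.47%. Side by side, the promoter held 64.2 CPM in KC, 27.7 CPM in RLM and 3.46 CPM in BMDM with DLL4. The 2 tables have their own regions and scaling, and levels were not tested across them. The summed level of the 5 endothelial markers was 140 to 142 CPM with DLL4 and 53.0 to 55.6 without, of which Pecam1 had 108 ± 2.93 with DLL4 and 25.0 ± 3.78 without, and its part in the Spic values was not tested.

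Summed over its regions, Spic had 172 and 191 CPM in KC, 75.4 and 72.6 in RLM, 4.94 and 3.38 in monocytes, 5.81 and 5.56 in BMDM with DLL4 and 1.72 and 2.10 in BMDM without. These sums count tags of the overlapping promoter regions more than once. In the first table every KC library lay above the RLM libraries, and these above the monocyte libraries. The sum differed by 4.15 (SE 0.21, adjusted p = 7.20e-16, edgeR over 16749 genes) between RLM and monocytes and by 1.29 (SE 0.17, adjusted p = 1.25e-07) between KC and RLM. Between KC and monocytes it differed by 5.44 (SE 0.22, adjusted p = 1.23e-19), and between BMDM with and without DLL4 by 1.56 (SE 0.33, adjusted p = 1.26e-04, edgeR over 16421 genes). Ordered by log2 difference, Spic was number 6 of 16749 genes for RLM against monocytes and number 15 for KC against monocytes. It was number 1685 for KC against RLM and number 153 of 16421 genes for DLL4. Scaled by total tags in place of TMM, the median log2 difference of all genes moved by -0.22 for KC against RLM and by -0.26 for KC against monocytes, and the Spic sum was at 1.07 for KC against RLM. The share of higher among called genes was then 37.8% in place of 53.3% for KC against RLM, 40.4% in place of 56.1% for KC against monocytes and 55.5% in place of 66.9% for DLL4.

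LXR binds DNA with RXR and senses oxysterols, SMAD4 is the shared partner of the SMADs that TGF-beta and BMP receptors activate, and RBPJ is the DNA-binding partner of activated Notch. Their peaks were called by the authors in each library alone, so a count compares lists and not conditions. No test was made of the peaks, since the lists hold called peaks alone and an exact permutation test of 2 against 2 libraries gives no p under 0.333. In KC, LXR had peaks at 3 of the 4 places of the locus in both libraries. In intron 5 they held 30.6 and 26.3 tags per 10 M, in intron 1 45.2 and 15.3, and at the promoter 36.7 and 13.5. The first library had another peak in intron 1 with 17.8 tags per 10 M, so it had 4 peaks and the second had 3. In BMDM with GW3965 the LXR lists of 42233 and 30354 peaks held none at these places. For the second KC library the ChIP name in the file header gives a control diet but the name of its input gives a NASH diet. Its 3 peaks were 15.0, 4.36 and 7.7 times their input, and those of the first library at the same places 20.2, 9.91 and 47.9 times.

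The paired LXR peaks overlapped by 107 bp in intron 5, 154 bp in intron 1 and 127 bp at the promoter. In their own lists of 41755 and 69824 peaks they were of ordinary to upper height. The intron 5 peak stood at the top 36.9% and 8.08%, the intron 1 peak at the top 20.2% and 21.3% and the promoter peak at the top 28.5% and 27.1%. LXR peaks thus lay at intron 5 as at the other places, although H3K27ac in intron 5 was 2.69 CPM in KC, against 49.0 in intron 1.

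SMAD4 had peaks at the same 3 places in 1 of 2 libraries of KC nuclei. They held 18.5 tags per 10 M in intron 5, 21.6 in intron 1 and 15.3 at the promoter. In the same order they overlapped the LXR peaks of the first KC library by 136, 116 and 60 bp. With those of the second KC library the overlap was 76, 103 and 20 bp. The other library, with 25369 peaks against 37180, had none, and neither had the SMAD4 lists of BMDM with 37103 and 28593 peaks. SMAD4 at Spic therefore rests on 1 library.

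RBPJ peaks at Spic were in BMDM lists. In KC nuclei its lists of 13394 and 11277 peaks held none at Spic. In BMDM, with 80480 and 78976 peaks, both lists held a peak in the downstream region, with 9.04 and 5.72 tags per 10 M, and the first had one at the promoter with 7.83. These were among the lowest of their lists, at the top 83.6% and 98.3% and the top 89.2%. The share of tags in peaks was 1.01% and 0.76% in the RBPJ libraries of KC nuclei and 25.1% and 24.5% in those of BMDM per the file headers, so the lists differ in reach, and the part of that in these counts was not tested.

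In the promoter sequence given above, the LXR peaks are centred 91 and 149 bp upstream of the start and that of RBPJ 60 bp upstream, while the SMAD4 peak is centred 7 bp downstream of it. The capitals are the part that both LXR peaks cover. They hold none of the exact letters of the 9 motifs, DR4 and its core included. Sites that differ from these letters were not searched, and the exact DR4 letters are in 0.0152% of all promoters.

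**Figure D3:**
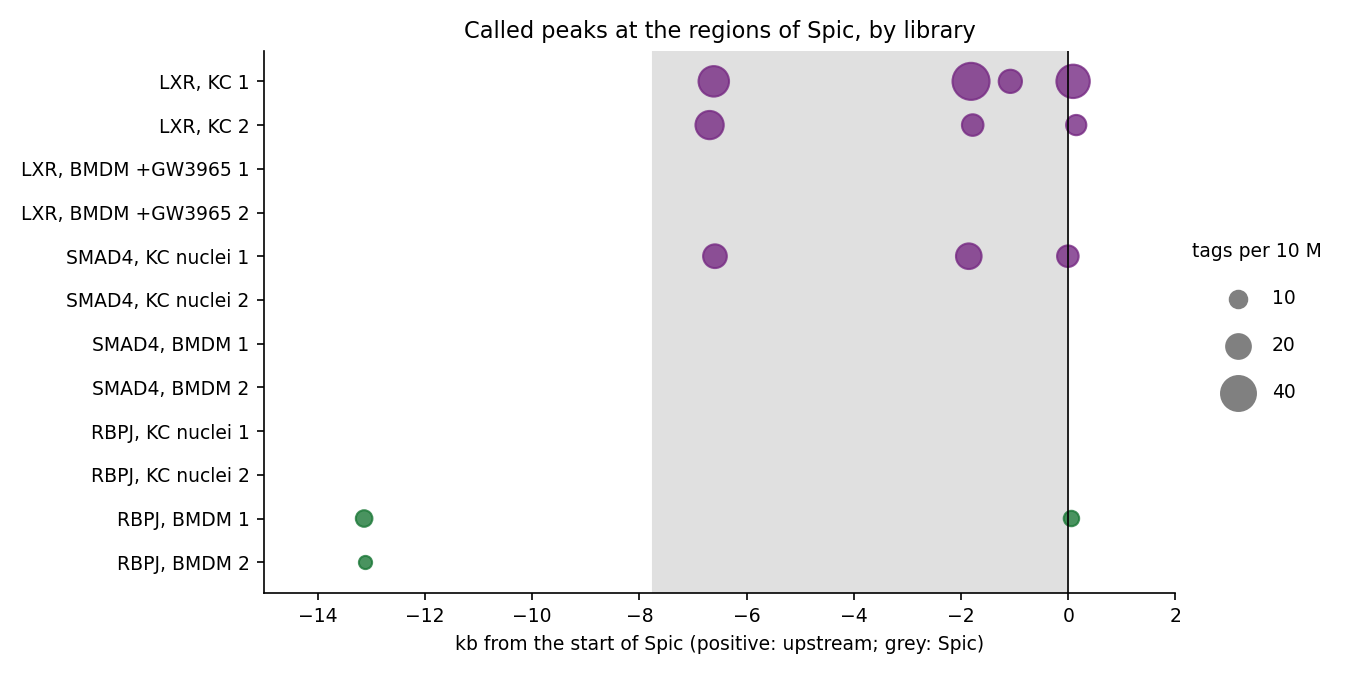
Called peaks of LXR, SMAD4 and RBPJ at the regions of Spic, 1 row per library, placed by distance from the start of the gene (kb, positive upstream). The area of a point is the normalized tag count (tags per 10 M), from 5.72 to 45.2. Purple rows are KC or KC nuclei and green rows BMDM. LXR peaks recur at 3 places in both KC libraries, SMAD4 peaks in 1 library of KC nuclei, and 7 of the 12 libraries have no peak.

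The surroundings, regions and peaks within 120 kb and genes within 250 kb of the start of Spic, were chosen after values were seen. RefSeq places 11 other genes there, and 6 had tested H3K27ac sums. Mybpc1, a muscle myosin-binding protein gene, was called higher in KC than in RLM (102 ± 6.97 and 24.3 ± 3.29 CPM, log2 difference 2.07, SE 0.19) and higher in RLM than in monocytes (1.25, SE 0.20, not called within 20 kb of its start at 0.53). Regions nearest to it lay 109 kb and 60.7 kb downstream of the start of Spic. The first held 17.6 and 16.0 CPM in KC and 1.31 and 1.02 in RLM, the second 16.7 and 24.2 in KC and 1.18 and 2.64 in RLM. Unlike the Spic promoter these were not called in RLM against monocytes (0.70 and 0.71), and the difference from the promoter was not tested. Another region nearest to Mybpc1, 104 kb downstream of the start of Spic, had 17.3 and 10.7 CPM in RLM and 3.14 and 5.78 in monocytes and was called (1.64, SE 0.32), while KC against RLM was not (-0.27, SE 0.30). Sycp3 was called higher in KC than in RLM (1.09), though not without the first RLM library (0.90) or the second KC library (0.95), or scaled by total tags (0.86). Gm4925 was called higher in KC than in monocytes (1.47, SE 0.16), and Arl1, Chpt1 and Utp20 had no call.

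Of the regions within 120 kb, those of Spic included, 8 of 26 tested were called higher in RLM than in monocytes. In KC against RLM 8 of 26 were, in KC against monocytes 15 of 26 and with DLL4 5 of 18. Of all regions tested, 8.57%, 22.3%, 24.9% and 4.89% were called higher, in the same order. By edgeR 0 of those within 120 kb were called lower, against 7399, 11283 and 14353 of all 80982 regions and 2164 of 82089. Some of the regions within 120 kb overlap each other. With DLL4 the regions called higher there were the Spic promoter, 2 regions nearest to Gm4925 and 2 nearest to Arl1. Those nearest to Arl1, at 57.0 and 58.6 kb upstream, were low and close to the threshold (1.54, adjusted p = 0.0321, and 1.01, adjusted p = 0.0477, edgeR). Of those nearest to Gm4925, the one 25.8 kb from the start of Spic held 9.58 and 8.27 CPM with DLL4 and 2.19 and 3.73 without (log2 difference 1.57, SE 0.25, adjusted p = 7.21e-06, edgeR). The one at 29.5 kb held 19.2 and 21.7 CPM with DLL4 and 3.79 and 3.8 without (2.43, SE 0.17, adjusted p = 1.91e-13). The same 2 places were higher in RLM than in monocytes, with 13 and 12.6 CPM in RLM and 2.31 and 1.32 in monocytes at 25.8 kb (2.81, SE 0.35), and 12.5 and 10.4 CPM in RLM and 5.87 and 5.37 in monocytes at 29.5 kb (1.02, SE 0.30). Neither was called in KC against RLM (-0.13 and 0.44).

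The place at 29.5 kb had peaks in 11 of the 12 factor libraries and in all 6 groups, RBPJ in KC nuclei included with 8.42 and 6.62 tags per 10 M. In KC the LXR peaks there held 47.0 and 20.4 tags per 10 M, and in BMDM with GW3965 82.4 and 83.4. At 25.9 kb 8 of 12 libraries had a peak, none of them RBPJ in KC nuclei. Whether these places act on Spic was not tested.

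**Figure D4:**
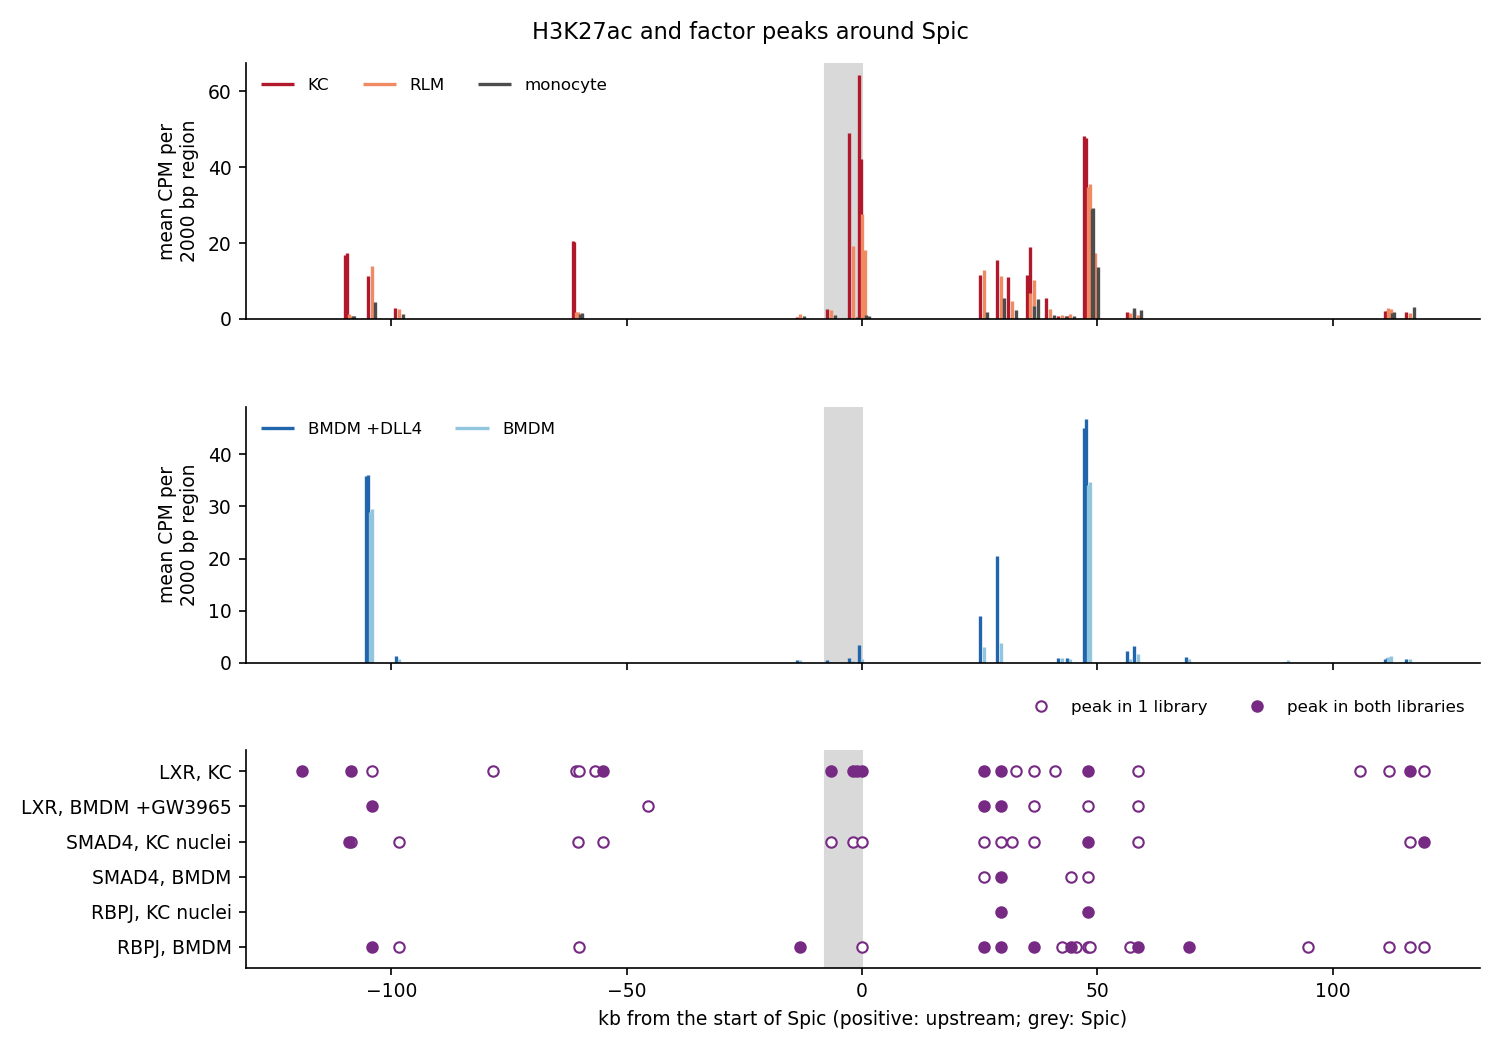
H3K27ac of every region within 120 kb of the start of Spic (mean CPM of 2 libraries, with the bars of a group set slightly apart) in KC, RLM and monocytes (top) and in BMDM with and without DLL4 (middle), and the sites of called factor peaks (bottom; filled, in both libraries; open, in 1). The tallest KC bars stand at the Spic promoter and intron 1 (grey span: the gene) and 48.0 kb upstream, where all groups are high.

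Genes of heme and iron handling, a list of 20 chosen with earlier results of these data known, were set beside Spic. In RLM against monocytes, 5 of 20 were called higher and 0 lower, against 6.2% and 5.8% of all genes tested, and the list median was 0.63, against 0.07 over all genes. The iron exporter gene Slc40a1 had 87.0 ± 9.08 CPM in RLM and 18.4 ± 0.110 in monocytes (log2 difference 2.24, SE 0.17, but 0.87 and not called with regions within 20 kb alone). The heme transporter gene Slc48a1 had 86.7 ± 10.9 CPM in RLM and 22.5 ± 4.15 in monocytes (1.94, SE 0.18). The iron transporter gene Slc11a2 differed by 1.55 (SE 0.19), the biliverdin reductase gene Blvrb by 1.4 (SE 0.20) and the ferritin light chain gene Ftl1 by 1.21 (SE 0.16, not called without the first monocyte library at 0.94 or with 1 region per overlapping run at 0.93).

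In KC against RLM, 8 of 20 were called higher and 0 lower, against 14.6% and 12.8% of all genes, with a list median of 0.92 and -0.07 over all genes. Cd163, the receptor of hemoglobin bound to haptoglobin, had 58.9 ± 11.6 CPM in KC and 10.0 ± 0.391 in RLM (2.55, SE 0.23). Vcam1, an adhesion molecule carried by red pulp macrophages, differed by 2.25 (SE 0.17). Hmox1, the heme oxygenase that opens the heme ring, had 288 ± 32.7 CPM in KC and 121 ± 4.12 in RLM (1.25, SE 0.15). In RLM against monocytes Hmox1 stayed just under the fold that could be called (0.91, SE 0.15). In KC against monocytes, 11 of 20 were called higher and 0 lower, against 18.4% and 14.4% of all genes, with a list median of 1.43 and -0.08 over all genes. Besides the genes above, Slc11a1 (1.63), Keap1 (1.43), Lrp1 (1.88) and Tfrc (1.43) were among these. Keap1 was not called under 1 of 15 alternatives (0.77). Bach1, the repressor of Spic and Hmox1 that heme inactivates, was not called in any comparison, with 0.73 in RLM against monocytes, -0.02 in KC against RLM, 0.72 in KC against monocytes and 0.26 with DLL4. With DLL4, 1 of 20 was called higher and 0 lower, against 2.6% and 1.28% of all genes. It was Slc40a1, with 1004 ± 27.8 CPM with DLL4 and 420 ± 13.2 without (1.26, SE 0.04), while Hmox1 was at -0.22 (SE 0.06).

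Of 9 ETS relatives of Spi-C and their partner factors, 2 were called higher in RLM than in monocytes and 0 lower, against 6.2% and 5.8% of all genes tested, namely the ETS factor gene Ets2 (1.32, SE 0.15) and Cebpa (1.09, SE 0.15, not called without the first monocyte library at 0.97 or with 1 region per overlapping run at 0.64). In KC against RLM 3 were higher and 1 lower, against 14.6% and 12.8% of all genes. The higher ones were Irf8 (1.77, SE 0.15), Spi1 (1.19, SE 0.15), which encodes PU.1, and Irf4 (1.06, SE 0.17). Scaled by total tags, Spi1 (0.97) and Irf4 (0.84) were not called, nor with 1 region per overlapping run (0.90 and 0.89). Spib was lower (-3.00, SE 0.95), on 1 region under 3 CPM in every library, and was not called without the second RLM library or the second KC library. In KC against monocytes 4 were higher, Irf8 (2.47), Ets2 (1.89), Spi1 (1.61) and Irf4 (1.04, not called under 3 of 15 alternatives), and Spib was lower (-2.63), against 18.4% and 14.4% of all genes. With DLL4, 0 of 9 were called by edgeR in either direction, against 2.6% and 1.28% of all genes. Irf8 (0.52, adjusted p = 2.77e-16) and Spi1 (0.24, adjusted p = 2.17e-07) stayed under the fold.

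Of 14 genes of Kupffer cell transcription factors and of the measured factors, 7 were called higher in RLM than in monocytes and 0 lower, against 6.2% and 5.8% of all genes tested. Id2, an inhibitor of helix-loop-helix factors, differed by 3.36 (SE 0.17), the Notch target Hes1 by 2.70 (SE 0.21) and the LXR alpha gene Nr1h3 by 2.04 (SE 0.18). Id3 (1.58, SE 0.15) was also called. Maf (1.02, SE 0.15) and Zeb2 (1.04, SE 0.16) were near the fold that could be called, and 9 and 4 of 15 alternatives ended their calls, with lowest values of 0.82 and 0.77. In KC against RLM 5 were higher and 1 lower, against 14.6% and 12.8% of all genes, led by the LXR partner gene Rxra (2.19, SE 0.15) and Id3 (1.68, SE 0.15). Smad4 was lower (-1.01, SE 0.25), but 9 of 15 alternatives ended that call, and it was at -0.54 without the second KC library. Id1 (1.31, SE 0.16), Nr1h3 (1.46, SE 0.17) and Tfec (1.29, SE 0.16) were the others called higher. With DLL4, Hes1 (3.13, SE 0.13) and Nr1h3 (1.07, SE 0.10, 0.98 and not called when scaled by total tags, 0.74 with 1 region per overlapping run) were higher, 2 of 14 against 2.6% of all genes. In KC against monocytes 10 were higher and 1 lower, against 18.4% and 14.4% of all genes. In RLM against monocytes and in KC against monocytes, the Spic sum had a larger log2 difference than any gene of the 3 lists. Both differences rest on a low Spic sum in monocytes, at 4.94 and 3.38 CPM, and the authors listed none of its regions in monocytes.

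**Figure D5:**
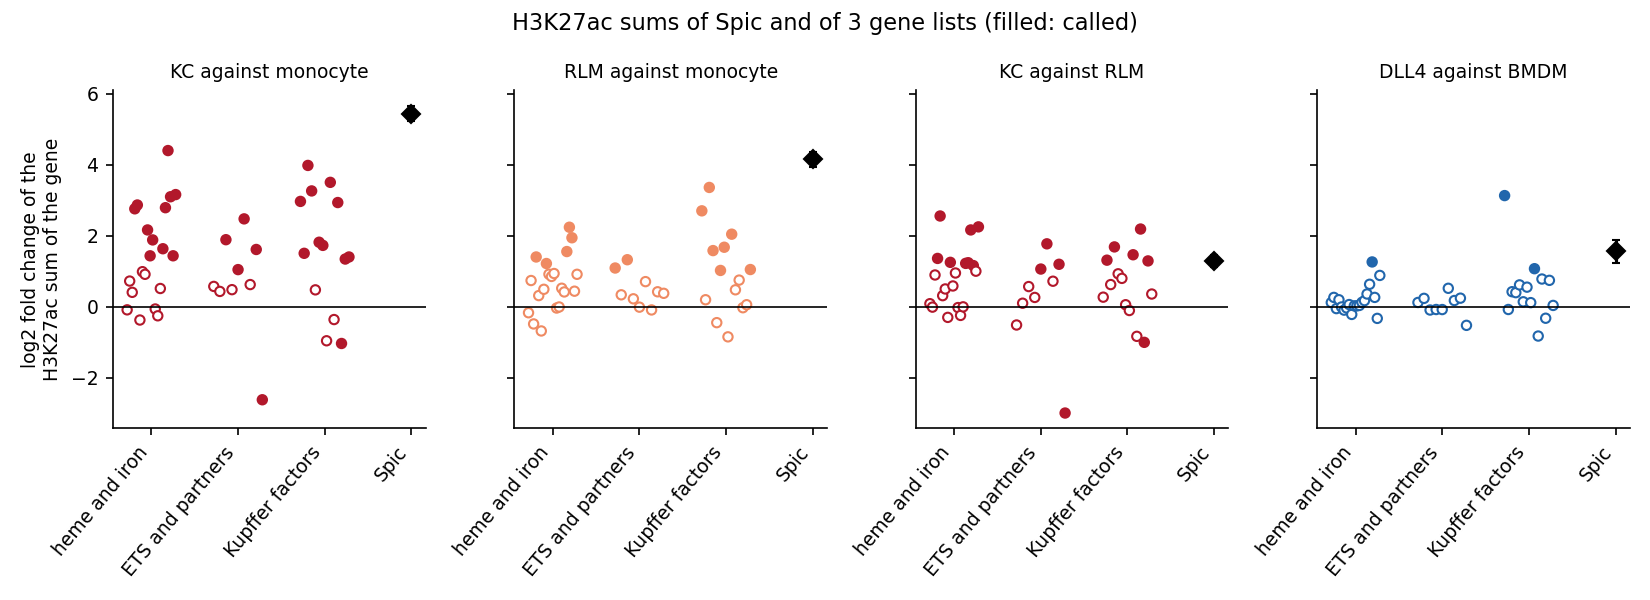
Log2 fold change of the H3K27ac sum of each gene of the 3 lists (points) and of Spic (diamond with its standard error) in 4 comparisons. Filled points were called. Spic lies above every list member in both comparisons with monocytes, and among the list members in KC against RLM.

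The 10 genes whose level over the 6 libraries was most like that of Spic were found by the distance between centred log2 CPM, over tested genes with symbols other than Gm numbers and Rik names. C1qa, a chain of complement C1q, was nearest (distance 0.63), with 52.5 and 49.8 CPM in KC, 20.9 and 19.0 in RLM and 1.36 and 1.44 in monocytes. The sorting nexin gene Snx24 (1.12) and Mertk (1.14), a receptor for the uptake of apoptotic cells, came next. C1qc (1.36), Dmpk (1.36), Itga9 (1.42), Mir5114 (1.45), Pdlim4 (1.46), the cholesterol exporter gene Abca1 (1.5) and Cd38 (1.53) followed. C1qa and Mertk are also among the 5 macrophage markers. Under another prior count 10 of the 10 were kept, and with group means in place of libraries 8.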

How the data were processed

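Members and gene lists were chosen with earlier results of these data known. Per the submitters' processing notes, reads were aligned to mm10 with Bowtie2 and processed with HOMER, with no versions given in the sources used here. The deposited H3K27ac tables hold raw tag counts per 2000 bp region. Of their regions, 55.2% (liver and blood) and 50.9% (BMDM) overlap another. Per the file headers, the authors called peaks in each library at FDR 0.001, at least 4-fold over input and over the local 10000 bp, with Poisson p 0.0001. Each peak has a coverage signal in tags per 10 M, a score and a fold ratio over input, all the authors' own values per the file headers. Factor libraries held 11.1 to 56.3 M tags. The input of 1 library of SMAD4 in KC nuclei also served 1 of RBPJ.

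Counts were scaled by TMM, filtered with filterByExpr (minimum count 10) and tested with edgeR 4.0.16 (quasi-likelihood, robust, R 4.3.3, limma 3.58.1), all 6 liver and blood libraries in 1 fit and the 4 BMDM libraries in another. P-values were adjusted by Benjamini-Hochberg over all regions or genes. Gene sums add regions within 100 kb by nearest gene. Departure of a region from its gene used diffSpliceDGE, at adjusted p under 0.05. DESeq2 1.42.0 was an alternative, as were total tags, other filters, 1 region per overlapping run, a 20000 bp window and leaving out each library. Scripts were tested on simulated data. Named genes were Spic, those of 3 lists, those within 250 kb and the 10 nearest in centred log2 CPM (prior count 1). The lists were given as counts, with values for some of the genes that passed and for Bach1. The values of 1 list member are not reported here. Tables used pandas 2.3.3 and figures matplotlib 3.10.9.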

Additional observations from a re-analysis of the deposited data

How the results depend on the processing

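The Spic sum kept its direction and its call in all 57 alternatives over the 4 comparisons, at 3.52 to 4.4 for RLM against monocytes, 1.07 to 1.44 for KC against RLM, 4.76 to 5.74 for KC against monocytes and 1.42 to 1.72 for DLL4. Of 1442 alternatives for the sums of other named genes, 52 ended a call and 0 reversed one. Leaving out each library gave 19349 to 30615 called regions for KC against RLM, against 29326 with all, the lowest without the second KC library. The departure of intron 5 then ranged from -2.52 to -1.59 for RLM against monocytes, and that of intron 1 from 0.88 to 1.25 for KC against monocytes. Departures near 0 changed sign: with libraries left out, the promoter lay between -0.026 and 0.032 and the second promoter region between -0.020 and 0.031 for KC against RLM. The second promoter region lay between -0.11 and 0.94 for RLM against monocytes and between -0.10 and 0.95 for KC against monocytes, and intron 1 between -0.61 and 0.61 for DLL4. With 1 region per overlapping run the promoter departure of KC against RLM was 0.038. The causes were not tested. With libraries left out, intron 5 differed by -0.21 (without the second RLM library) to 1.04 between KC and RLM. Peaks at least 8-fold over input numbered 1 in the second LXR library of KC and 1 in the first RBPJ library of BMDM. Counting peaks found in both libraries left 1 in that RBPJ library and 0 in the first SMAD4 library of KC nuclei.

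Libraries with the same number did not deviate together over regions (correlations -0.01, -0.02, 0.04 and 0.02), and the main fits used no pairing. Each correlation rests on 2 libraries per group and cannot show whether same-numbered libraries share a mouse, day or batch. With the replicate block the Spic sum differed by 4.15, 1.3, 5.45 and 1.57, and 13943, 28627, 34073 and 6380 regions were called, in the order RLM against monocytes, KC against RLM, KC against monocytes and DLL4. Few tags limit intron 5 and the downstream region in every library, and all Spic regions in monocytes and BMDM. Each group has 2 libraries, peak lists hold called peaks alone, and inputs, culture days and nuclei against cells differ between factor groups.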
